A study of Mus musculus with 6 samples.

Results

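The contractile unit of the heart muscle cell, the sarcomere, is built from proteins that exist in more than 1 isoform. A set of 10 mouse genes for such isoforms was followed here, taken from a list of names drawn up with earlier results of these data known, and not by a threshold on their values: the myosin heavy chains Myh6 and Myh7, the inhibitory troponins Tnni1 and Tnni3, the tropomyosin-binding troponins Tnnt1 and Tnnt2, the sarcomeric actins Acta1 and Actc1, and the ventricular myosin light chains Myl2 and Myl3. Of these 10 genes, 9 had values, and Acta1 was not analysed here. They stood among 11381 genes that passed the filter on low values, and all 9 passed it. RNA was measured by sequencing in hearts of mice aged 32 weeks. The controls were 3 libraries of ApoE-/- littermates (numbered 1, 2 and 3), which lack apolipoprotein E and develop high cholesterol and atherosclerosis. The other group was 3 libraries of ApoE-/- Timp3-/- mice (numbered 4, 5 and 6), which also lack tissue inhibitor of metalloproteinases 3. The ApoE deletion is thus shared by all 6 libraries, and no heart with a functional Apoe gene was compared. The labels give neither sex, strain background, chamber nor whether 1 library is 1 animal, so p-values reflect only how these libraries spread.

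In small rodents the ventricle of the fetus uses mainly the slow beta myosin heavy chain (Myh7) and the slow skeletal troponin I (Tnni1), and around birth it changes to the fast alpha chain (Myh6) and to cardiac troponin I (Tnni3). Load on the adult heart and low thyroid hormone are known to bring Myh7 back. Tnnt1 is the troponin T of slow skeletal fibres, and Tnnt2 is that of the heart. Acta1, the skeletal actin, is the other sarcomeric actin that loaded hearts are known to use beside Actc1. The ratio of the slow or fetal isoform to its adult partner within 1 library is the usual readout of this change, since it does not depend on how libraries are scaled.

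Myh6 and Myh7 lie next to each other on chromosome 14, and each carries a microRNA in an intron. In the annotation of the deposited files (build NCBIM37) Myh7 spans chr14:55589525-55613471 and Myh6 chr14:55560758-55585764, both on the minus strand. The microRNA genes Mir208b and Mir208a lie on the same strand within Myh7 and Myh6 and share 0 exonic bases with them. Another member of this microRNA family, Mir499, belongs to the related gene Myh7b on chromosome 2. The mature sequences from RefSeq (GRCm38.p6) are shown because they mark the myosin genes as hosts of 1 microRNA family, with the seed, bases 2 to 8, in capitals.
mmu-miR-208a-3p: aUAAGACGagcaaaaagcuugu
mmu-miR-208b-3p: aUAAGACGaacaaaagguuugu
mmu-miR-499-5p: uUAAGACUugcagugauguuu
The microRNAs of Myh6 and Myh7 have the same seed, UAAGACG, and differ at 3 bases in all, and that of Myh7b has the seed UAAGACU. Libraries of this kind do not measure mature microRNAs, so no level is given for them.

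The 250 bases before the RefSeq start of Myh6, Myh7 and Tnnt1 (GRCm38.p6, all on the minus strand, written 5′ to 3′ toward the gene) are shown for the neighbouring myosin pair and for Tnnt1, a slow troponin whose RefSeq start matches that of its first listed transcript. Capitals mark matches to the MCAT core CATTCC or its reverse complement GGAATG, a sequence that TEAD factors bind, or to TATAAA on either strand.
Myh7, chr14:54994627-54994876: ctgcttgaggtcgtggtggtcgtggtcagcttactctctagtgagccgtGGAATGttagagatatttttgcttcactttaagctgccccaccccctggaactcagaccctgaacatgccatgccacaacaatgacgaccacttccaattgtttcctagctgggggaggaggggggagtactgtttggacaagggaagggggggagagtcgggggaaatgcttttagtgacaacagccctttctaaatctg
Myh6, chr14:54966608-54966857: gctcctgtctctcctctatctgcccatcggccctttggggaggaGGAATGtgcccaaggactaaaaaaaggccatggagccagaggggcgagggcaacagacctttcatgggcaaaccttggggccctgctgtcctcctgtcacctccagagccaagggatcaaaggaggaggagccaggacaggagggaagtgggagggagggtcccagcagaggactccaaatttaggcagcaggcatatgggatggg
Tnnt1, chr7:4515976-4516225: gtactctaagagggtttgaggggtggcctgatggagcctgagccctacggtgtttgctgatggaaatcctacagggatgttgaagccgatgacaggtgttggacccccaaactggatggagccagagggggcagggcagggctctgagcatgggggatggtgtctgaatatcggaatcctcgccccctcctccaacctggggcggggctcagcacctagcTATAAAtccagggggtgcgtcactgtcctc
The MCAT core stands 195 bases before the Myh7 start and 200 bases before the Myh6 start, in the same orientation. It occurs in 12.6% of 32851 promoters of this length. Among the other members, the Myl3 window held 2 matches to this core, and those of Tnni1, Tnni3, Tnnt1, Tnnt2, Actc1 and Myl2 held 0. The Tnnt1 window holds TATAAA 24 bases before the start, a sequence present in 12.4% of all promoters. These matches are descriptions of the letters and not measured binding sites.

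Depth, judged from the coverage in the files, was 654 to 1339 aligned megabases per library, highest in library 2. Timp3 checks the labels only in part. It was at 52.1, 38.0 and 36.3 FPKM (fragments scaled to transcript length and to the fragments of the whole library) in the controls against 20.2, 28.0 and 29.6 in double mutants. There was no overlap, but Timp3 transcripts were still listed in every double mutant, and the difference of -0.61 on the log2(scaled FPKM + 1) scale did not pass the threshold (limma adjusted p = 0.29). Libraries 4 and 1 stand apart in other tissue. The summed FPKM of the red blood cell genes was 3013 in library 4 and 26.3 to 306 in the others, and that of adipocyte genes was 147 in library 1 and 1.06 to 24.0 in the others. Atrial genes varied within both groups, as described below. Over all genes, 5 of 11381 passed an adjusted p of 0.05 between the genotypes (0.0439%), and 1 to 101 did under other settings (101 with array weights, 10 without library 4).

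The heart identity of the samples was plain from the members themselves. By mean FPKM, a scale per transcript length on which genes can be compared, Actc1 (4383), Myl2 (4369) and Tnnt2 (3664) ranked 3rd, 4th and 5th of all tested genes. Tnni3 (2119), Myl3 (1798) and Myh6 (825) followed. Myh7 stood at 101, Tnnt1 at 7.38 and Tnni1 at 1.63. These sums also depend on how a gene's value is split between transcripts of unlike length. The ranges over libraries of Actc1, Myl2 and Tnnt2 overlapped, as did those of Tnni3 and Myl3. Myh6, Myh7, Tnnt1 and Tnni1 were each separated from their neighbours in this order in all 6 libraries. The 9 genes together held 5.99% to 7.79% of all FPKM, lowest in library 1 and highest in library 4. In the 3 pairs with values, the adult or cardiac isoform was thus above its slow or fetal partner in every library of both genotypes.

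The slow and fetal isoform genes Myh7, Tnni1 and Tnnt1 had higher levels in all 3 double mutants than in all 3 controls, by factors of 1.64, 2.35 and 1.82 between group means. None of these differences passed the adjusted threshold, and neither did that of any other member: 0 of 9. At an unadjusted p under 0.05, 3 of 9 members were higher, beside 6.93% of all tested genes, and 0 were lower, beside 5.19%. All double mutants lay above all controls for 4 of 9 members (Myh7, Tnni1, Tnnt1 and Tnnt2), beside 9.98% of all genes. On deposited values without further scaling this held for the same 4 genes, beside 5.19% of all genes. Deposited values of reference transcripts alone, leaving out those that Cufflinks assembled in single libraries, gave 2 of 9 (Myh7 and Tnnt2), beside 5.18%. The median log2 difference of the 9 genes was 0.32, against -0.006 for all genes tested, and all 9 differences were above 0. The differences of Myh6, Tnni3, Actc1, Myl2 and Myl3 turned below 0 under at least 1 other scaling. In RNA from tissue of several cell types, more cells of a type and more RNA per cell cannot be told apart.

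**Figure D1:**
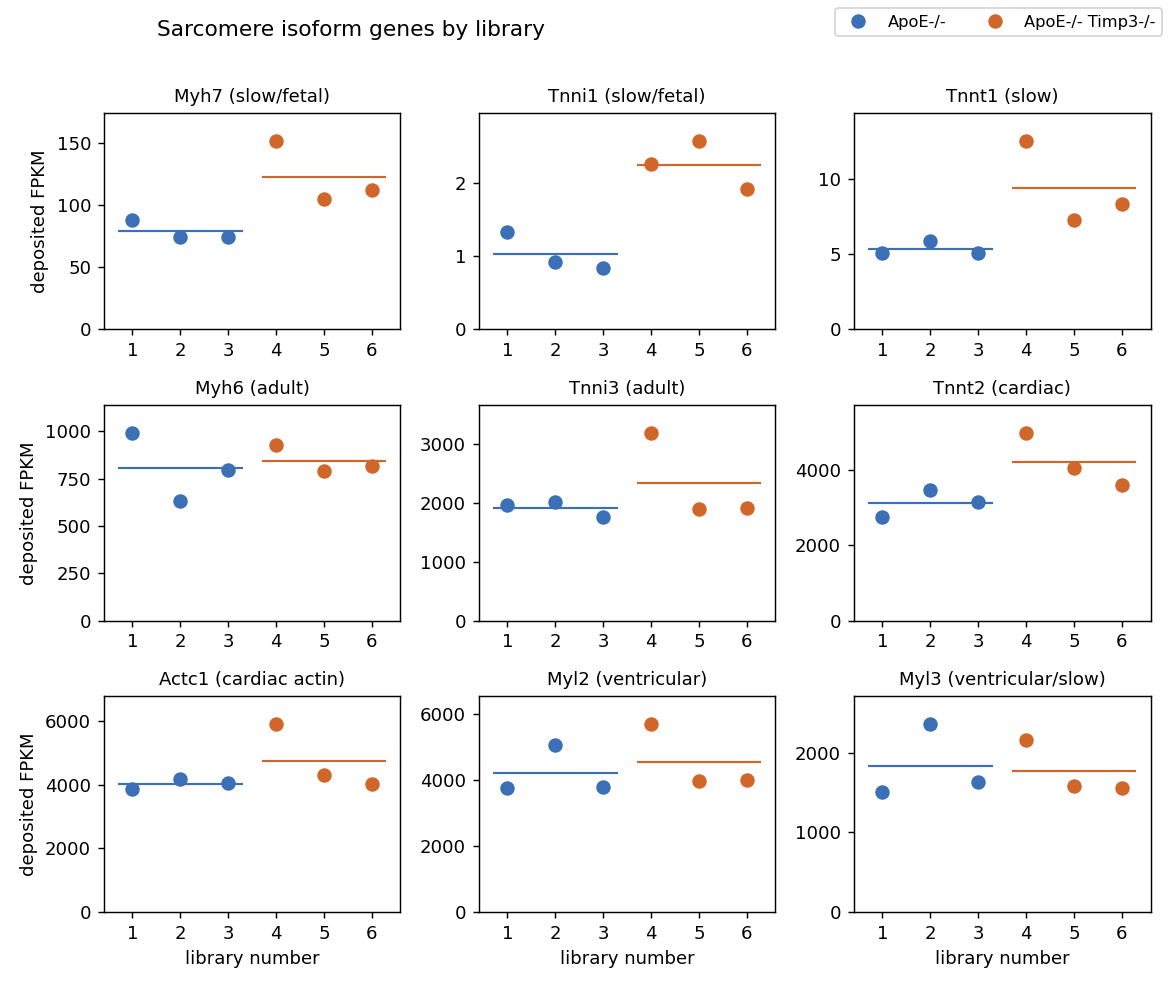
Deposited FPKM (vertical axes, each starting at 0) of the 9 isoform genes in libraries 1 to 6 (horizontal axes), with 1 point per library and a line at each group's mean. Points of the 3 ApoE-/- Timp3-/- libraries lie above all ApoE-/- points for Myh7, Tnni1, Tnnt1 and Tnnt2, and library 4 has the highest value for 6 of the 9 genes.

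Myh7, the slow beta myosin heavy chain, was at 88.1, 74.5 and 74.0 FPKM in the controls. In the double mutants it was at 151, 105 and 113 FPKM, so the lowest of these stood above the highest control. The scaled means were 76.7 ± 3.26 and 125.4 ± 19.8 FPKM (SD, n = 3 each). The log2 difference was 0.69 with a 95% interval of 0.35 to 1.03, with a limma adjusted p of 0.24. Of the tested genes, 87 had a p at or under that of Myh7, and 2.02% a log2 difference at least as high. The Myh7 value was that of 1 transcript, Myh7-201, whose intervals in the authors' files ran from 86.3 to 90.0, 73.4 to 75.7 and 72.5 to 75.4 FPKM in the controls and from 149 to 153, 103 to 106 and 111 to 115 in the double mutants. These intervals, which cover the estimate within a library, do not overlap between the groups. Nor do those of libraries 4, 5 and 6 overlap each other, or that of library 1 those of libraries 2 and 3. They therefore do not measure the spread between libraries of 1 genotype. In library 3 the files also hold 2 short assembled fragments, 323 nt together, over Myh7 that were too short to be counted. Spread over the 6139 nt of Myh7-201 they would add 8.94 FPKM and bring library 3 to 82.9, still below library 5. Without library 4, the highest of the 6, the log2 difference of Myh7 was 0.57.

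Myh6, the alpha chain that carries most of the myosin of the adult mouse ventricle, was at 991, 634 and 794 FPKM in the controls against 928, 790 and 816 in double mutants. The groups overlapped, with both the highest and the lowest deposited value among the controls, while after scaling library 4 was highest. The log2 difference was 0.16 (95% interval -0.23 to 0.55, limma adjusted p = 0.74). In libraries 1, 2 and 4, between 20.3% and 25.4% of the Myh6 value came from an assembled transcript, of 237, 161 and 189 FPKM, beside Myh6-201. The other 3 libraries had none. Myh6 and Myh7 share much coding sequence: 22.6% of the 50-nt windows of Myh7-201 occur unchanged in Myh6-201, and reads within them cannot be told apart by sequence. No such window was shared between the members of the troponin I and troponin T pairs, between Myl2 and Myl3, or between either myosin and Myh7b.

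The ratio of Myh7 to Myh6 was 8.90%, 11.8% and 9.32% in the controls against 16.3%, 13.3% and 13.8% in double mutants. The lowest double mutant, library 5, stood above the highest control, library 2, and the means were 9.99% ± 1.54 and 14.5% ± 1.63 (SD, n = 3 each). On the log2 scale the ratios differed by 0.54, with a two-sided exact permutation p of 0.1 (0.15 after Benjamini-Hochberg adjustment over the 3 ratios), which is the smallest that 3 against 3 libraries allow and cannot pass 0.05. With reference transcripts alone the ratio was 11.7%, 15.7% and 9.32% against 20.5%, 13.3% and 13.8%. The groups then overlapped, since the assembled Myh6 transcripts of libraries 1, 2 and 4 no longer counted, and the exact permutation p was 0.4 for a log2 difference of 0.38.

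**Figure D2:**
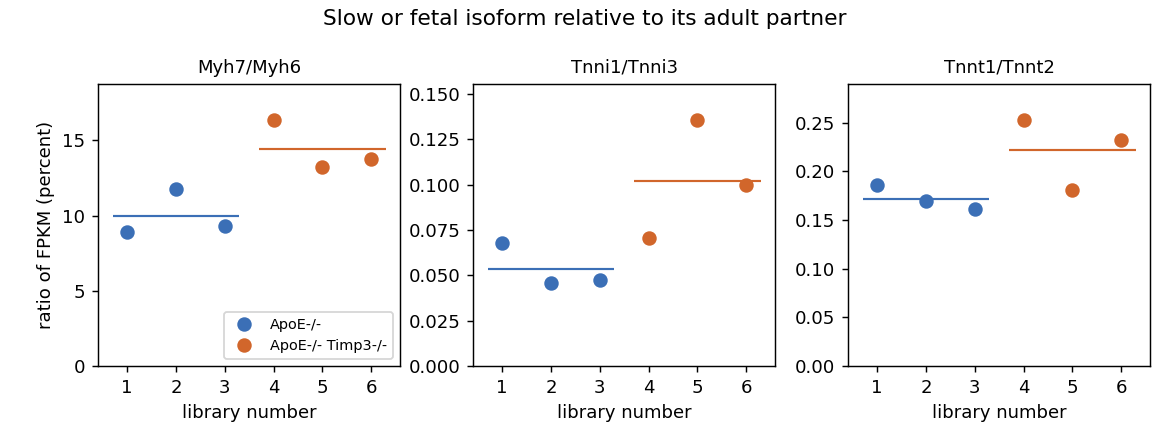
Ratio of the FPKM of the slow or fetal isoform to that of its adult or cardiac partner, in percent (vertical axes from 0), in libraries 1 to 6, with lines at the group means. The 3 double mutants lie above the 3 controls for Myh7/Myh6 (13.3% to 16.3% against 8.90% to 11.8%) and narrowly for Tnni1/Tnni3, and the groups overlap for Tnnt1/Tnnt2.

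Tnni1, the slow skeletal troponin I that the fetal heart uses, was near the lower limit of the test. It was at 1.32, 0.921 and 0.835 FPKM in the controls against 2.25, 2.56 and 1.91 in double mutants, with no overlap. The scaled means were 0.986 ± 0.129 and 2.32 ± 0.492 FPKM (SD, n = 3 each). The log2 difference, which understates the change of so low a gene because 1 is added to each value, was 0.73 (95% interval 0.37 to 1.09, limma adjusted p = 0.24). The low value was split between 5 reference transcripts, none of which was listed above 0 in all 6 libraries. Their intervals were wide: that of Tnni1-204 ran from 0.254 to 1.58 FPKM in library 1 and from 0.432 to 1.85 in library 6. In library 6, 40.4% of the value was a transcript assembled there. Without it the deposited value of library 6 was 1.14 FPKM, below the 1.32 of control library 1. The log2 difference of scaled values from reference transcripts alone was 0.57.

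Tnni3, cardiac troponin I and the partner of Tnni1, was at 1958, 2006 and 1760 FPKM in the controls against 3179, 1893 and 1916 in double mutants. Of these deposited values, that of library 4 alone stood above the controls, and after scaling that of library 5 did too. The log2 difference of Tnni3 was 0.32 (95% interval -0.18 to 0.82, limma adjusted p = 0.61), and 0.11 without library 4. Of the Tnni3 value, 41.5% to 48.3% per library came from Tnni3-202, a 451-nt transcript annotated as retaining an intron. Tnni3-201, of 912 nt, gave 18.0% to 28.1%. The ratio of Tnni1 to Tnni3 was 0.0676%, 0.0459% and 0.0475% in the controls against 0.0708%, 0.135% and 0.0998% in double mutants. The groups did not overlap, though library 4 lay just above library 1. The means were 0.0537% ± 0.0121 and 0.102% ± 0.0323 (SD, n = 3 each), and the log2 ratios differed by 0.90 with an exact permutation p of 0.1, 0.15 after adjustment. With reference transcripts alone library 6 stood at 0.0595%, inside the range of the controls, and the exact permutation p was 0.2.

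Tnnt1, slow skeletal troponin T, was at 5.12, 5.87 and 5.06 FPKM in the controls against 12.5, 7.30 and 8.36 in double mutants. Every double mutant stood above every control, with library 4 well above the other two. The scaled means were 5.24 ± 0.757 and 9.56 ± 2.34 FPKM (SD, n = 3 each). The log2 difference was 0.74 (95% interval 0.32 to 1.17, limma adjusted p = 0.25), and 0.57 without library 4. Assembled transcripts gave 28.8% of the Tnnt1 value in library 3, 26.7% in library 4 and 20.3% in library 5. Without them the deposited value of library 5 (5.82 FPKM) lay just below that of control library 2 (5.87 FPKM). Values are divided by scaling factors, 0.896 for library 5 and 1.01 for library 2 in the main setting. The order of these libraries thus need not hold after scaling. The log2 difference of scaled values without assembled transcripts was 0.63.

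Tnnt2, cardiac troponin T, was at 2753, 3470 and 3149 FPKM in the controls against 4974, 4044 and 3596 in double mutants. The groups did not overlap here either, by a small margin between libraries 2 and 6. The scaled means were 3076 ± 620 and 4312 ± 676 FPKM (SD, n = 3 each). The log2 difference was 0.50 with an interval that just reached 0 (-0.01 to 1.00, limma adjusted p = 0.42). As both troponin T genes were higher, their ratio moved less than Tnnt1 did. The ratio of Tnnt1 to Tnnt2 was 0.186%, 0.169% and 0.161% in the controls against 0.252%, 0.181% and 0.232% in double mutants. Library 5 lay within the range of the controls. The means were 0.172% ± 0.0128 and 0.222% ± 0.0370 (SD, n = 3 each). The log2 ratios differed by 0.35 with an exact permutation p of 0.2, also 0.2 after adjustment. With reference transcripts alone the ratio was 0.186%, 0.169% and 0.114% in the controls against 0.185%, 0.144% and 0.232% in double mutants. The log2 difference was then 0.26 with an exact permutation p of 0.5.

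Tnnt2 also changes by splicing, since the fetal heart includes short exons near the start of its coding region that the adult heart leaves out. The deposited files list 4 Tnnt2 transcripts. Tnnt2-204 holds a 12-nt and a 30-nt exon, exons 3 and 4 of its 15, which Tnnt2-201 lacks, and it lacks a 9-nt exon of Tnnt2-201. Of the Tnnt2 FPKM, Tnnt2-204 took 17.4%, 24.5% and 19.7% in the controls against 19.02%, 22.1% and 18.5% in double mutants. The groups overlapped, with means of 20.5% ± 3.64 and 19.9% ± 1.97 (SD, n = 3 each). Tnnt2-201 held 75.2% ± 5.32 and 80.1% ± 1.97, and Tnnt2-202, with the 12-nt exon but not the 30-nt one, was listed above 0 in library 1 alone (12.9%). The FPKM of whole transcripts cannot tell the inclusion of the 3 small exons apart. Among all reference transcripts tested, 17 of 12697 passed the threshold (0.134%), and 0 of the 16 member transcripts did. Those of members with the smallest p were Myh7-201 (log2 difference 0.66, limma adjusted p = 0.33), Tnni3-201 (0.47, limma adjusted p = 0.54) and Tnnt2-201 (0.56, limma adjusted p = 0.57).

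**Figure D3:**
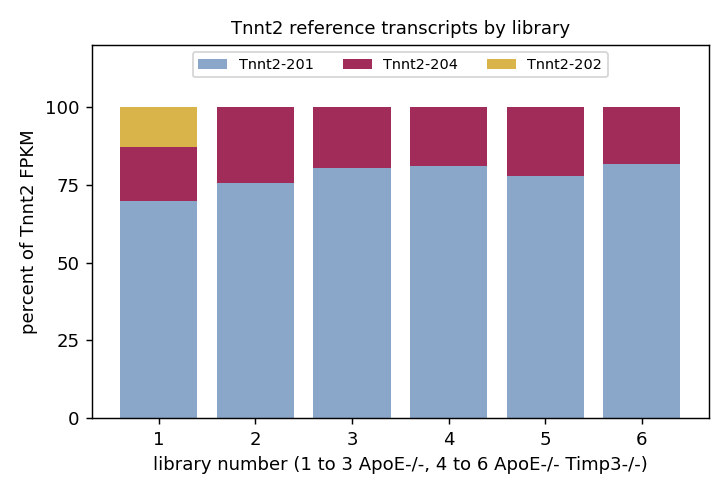
Share of each Tnnt2 reference transcript in the Tnnt2 FPKM (vertical axis, percent) of libraries 1 to 6, controls first, as stacked bars. Tnnt2-204, which holds the 30-nt exon, takes 17.4% to 24.5% of every library without separation of the genotypes, and Tnnt2-202 appears in library 1 alone.

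Actc1, cardiac alpha actin of the thin filament, was at 3850, 4187 and 4039 FPKM in the controls against 5888, 4315 and 4019 in double mutants. The groups overlapped, with library 6 inside the control range. The log2 difference was 0.29 (95% interval -0.18 to 0.76, limma adjusted p = 0.62). In library 5, 20.4% of the Actc1 value came from an assembled transcript. Since Acta1 was not analysed here, the ratio of skeletal to cardiac actin is not given. The smooth muscle actin Acta2, which is also expressed in the early heart, was at 35.1, 22.0 and 24.5 FPKM in the controls against 53.5, 33.2 and 34.5 in double mutants. These deposited values overlapped and the scaled ones did not, with a log2 difference of 0.62 (limma adjusted p = 0.30).

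Myl2, the regulatory light chain of the ventricle, was at 3766, 5051 and 3773 FPKM in the controls against 5674, 3951 and 4000 in double mutants. Myl3, the essential light chain of the ventricle and of slow skeletal fibres, was at 1509, 2353 and 1628 FPKM in the controls against 2155, 1587 and 1559 in double mutants. Both genes were high in libraries 2 and 4 and similar in the other four, so the groups overlapped. The log2 differences were 0.18 for Myl2 (95% interval -0.34 to 0.70) and 0.03 for Myl3 (95% interval -0.54 to 0.61), with limma adjusted p of 0.79 and 0.97. Splitting between Myl2 transcripts differed in library 2, where Myl2-201 took 17.9% of the value against 61.8% to 63.8% in the others. Since FPKM is scaled to transcript length, the Myl2 sum also depends on that split. Myl2-210 (467 nt) and Myl2-211 (367 nt), both shorter than Myl2-201 (662 nt), were above 0 in library 2 alone, at 1475 and 876 FPKM. A further Myl2 fragment of 259 nt assembled there was too short to be counted. The part of the split in the high Myl2 value of library 2 was not tested.

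Across the 6 libraries, Myh7 and Tnnt1 followed each other with Pearson r = 0.96 on the log2 scale, Myh7 and Tnni1 with 0.87, and Tnni1 and Tnnt1 with 0.77. These are descriptions over 6 points that share their libraries and their scaling, and they include the genotype difference. Of 5573 other genes searched, those most like Myh7 were Rpl30-ps1 (r = 0.996), Rpl31-ps13 (0.994) and Gm11353 (0.993). For Tnnt1 they were Rpl9-ps1 (r = 0.997), Rps27a-ps2 (0.993) and Rps6-ps3 (0.991), and for Tnni1 Gm10053 (r = 0.996), Prpf6 (0.991) and Gm15455 (0.986). Rpl30-ps1, for example, was at 28.7, 24.5 and 23.3 FPKM in the controls against 42.6, 32.0 and 32.9 in double mutants. Several of these are named as pseudogenes of ribosomal protein genes, whose reads cannot be told apart with certainty from those of their parent genes.

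Other genes of the thick filament, the myosin-bearing filament, were mostly unseparated. Of 14 listed genes 11 were tested, and 0 passed the threshold. The log2 difference was above 0 for 9 and below 0 for 2, with a median of 0.30. Of the 9, Myl7 (2.65), Myl4 (1.69) and Mybphl (1.17) are also on the atrial list described below. At an unadjusted p under 0.05, 1 of the 11 tested genes was higher, beside 6.93% of all tested genes. It was Mylk3, the cardiac kinase of the myosin light chain. Mylk3 was at 92.7, 74.7 and 80.7 FPKM in the controls against 110, 109 and 115 in double mutants, without overlap (log2 difference 0.50, 95% interval 0.21 to 0.80, limma adjusted p = 0.26). The M-band protein gene Myom1 (0.30) and Mylk4 (0.30) had overlapping groups. Myh7b, the host gene of Mir499, was at 7.09 to 12.2 FPKM in the controls against 9.24 to 10.6 in double mutants, a log2 difference of 0.06.

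The thin filament and the Z-disc, its anchor, showed no common direction. Of 24 listed genes 23 were tested, 0 passed the threshold, 8 differences were above 0 and 15 below, and the median was -0.07. Nebl, which codes for the cardiac relative of nebulin, was at 60.7, 35.5 and 52.0 FPKM in the controls against 56.7, 69.2 and 73.4 in double mutants (log2 difference 0.52, limma adjusted p = 0.39). Myot, which codes for the Z-disc protein myotilin, was at 10.05, 17.7 and 8.65 FPKM in the controls against 4.24, 5.74 and 6.25 in double mutants, all below the controls. Its log2 difference was -0.92 (95% interval -1.57 to -0.27, limma adjusted p = 0.28). The other genes with the smallest p were Xirp2 (-0.36) and Flnc (-0.29), both proteins of the Z-disc and intercalated disc.

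**Figure D4:**
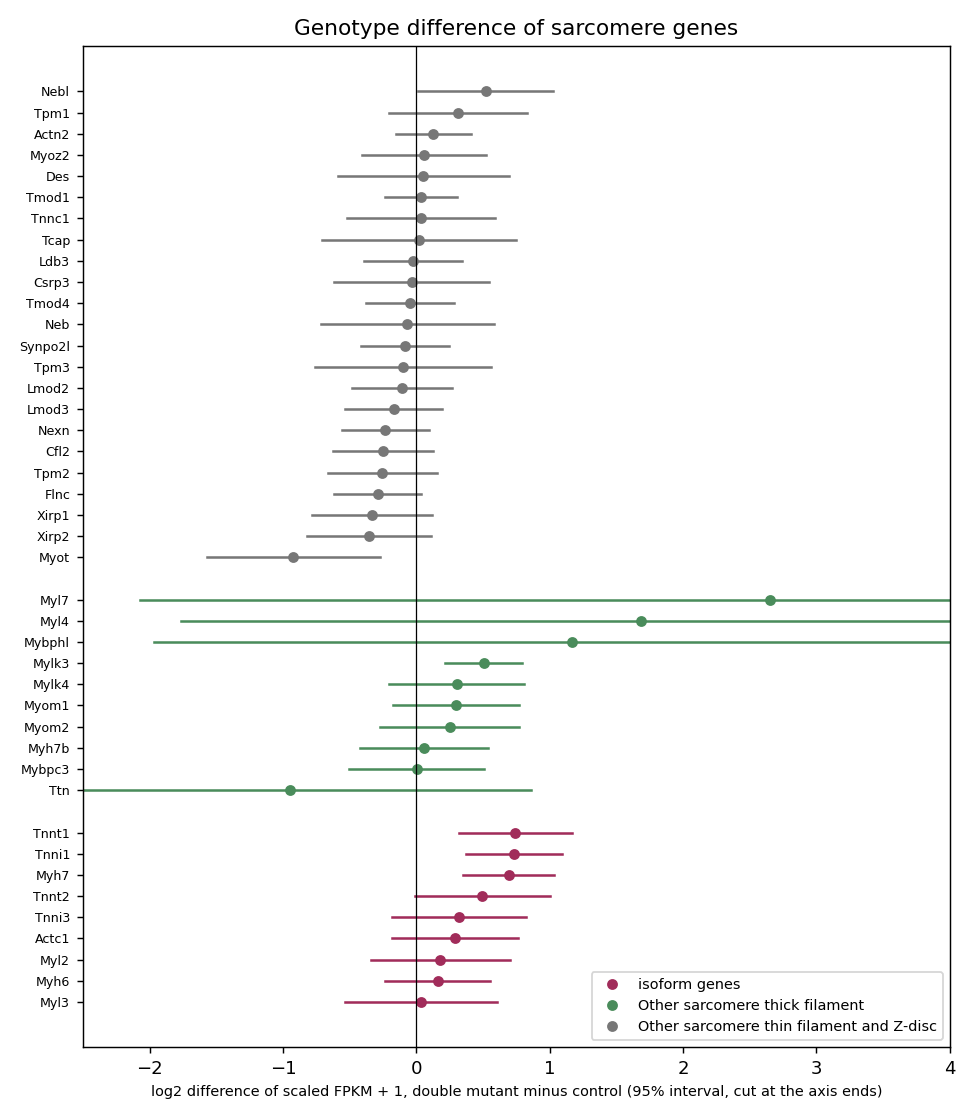
Log2 difference of scaled FPKM + 1 (horizontal axis, double mutants minus controls) with its 95% interval from limma, for the 9 isoform genes and other tested genes of the thick filament (10 of 11) and of the thin filament and Z-disc (23). The intervals of Myh7, Tnni1, Tnnt1, Mylk3, Nebl and Myot leave out 0, and none of these genes passed the adjusted threshold.

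Fetal and load-responsive heart genes outside the sarcomere showed no common direction. Of 18 listed genes 16 were tested, 0 passed, 10 differences were above 0 and 6 below, and the median was 0.04. Nppb, the B-type natriuretic peptide that stretched ventricles release, was at 34.2, 133 and 40.7 FPKM in the controls against 34.5, 26.0 and 20.4 in double mutants. Library 2 was far above the others and the groups overlapped, with a log2 difference of -1.02 (95% interval -2.22 to 0.19, limma adjusted p = 0.50). Rcan1, whose transcript responds to calcineurin, was at 12.2, 20.5 and 10.1 FPKM in the controls against 8.38, 7.49 and 7.36 in double mutants, all below the controls (log2 difference -0.68, limma adjusted p = 0.35). Igf2, the fetal growth factor, had a log2 difference of 0.65 (limma adjusted p = 0.43) and Uchl1, a ubiquitin hydrolase, one of -0.28.

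Genes known to act on the choice of myosin and troponin isoforms, such as thyroid hormone receptors and transporters, TEAD, MEF2 and NFAT factors and splicing regulators, gave a median log2 difference of 0.04. Of 45 listed genes 43 had values and 35 were tested. None passed the threshold, with 22 differences above 0 and 13 below. At an unadjusted p under 0.05, 3 of the 35 were higher, beside 6.93% of all tested genes, and 0 were lower, beside 5.19%. The 3 were Hopx, Klf15 and Slc16a10. Hopx, a homeodomain cofactor of the heart, was at 109, 82.9 and 98.3 FPKM in the controls against 167, 114 and 124 in double mutants, without overlap (log2 difference 0.54, limma adjusted p = 0.29). Klf15, a factor that restrains cardiac growth, was at 9.31, 9.25 and 10.8 against 12.5, 12.1 and 14.1 FPKM (0.43, limma adjusted p = 0.35). Slc16a10, a transporter of aromatic amino acids and thyroid hormone, was at 2.50, 2.76 and 2.40 against 2.81, 3.61 and 3.84 FPKM (0.36, limma adjusted p = 0.41). The splicing regulator Celf1 followed (0.27, limma adjusted p = 0.45).

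Markers of other tissue were set beside the members, because Tnni1, Tnnt1 and Myh7 are also genes of slow skeletal muscle and Myh6 is also an atrial gene. The 15 skeletal muscle genes summed to 65.2, 50.7 and 47.8 FPKM in the controls and to 60.1, 55.2 and 55.8 in the double mutants, with overlap. Of the 9 tested, 8 differences were above 0 and 0 passed the threshold. At an unadjusted p under 0.05, Myh2, Myh4 and Casq1 were higher, beside 6.93% of all tested genes. Myh2, a fast myosin, was at 1.66, 0.875 and 1.27 FPKM in the controls against 2.47, 1.59 and 3.45 in double mutants. Mybpc2, a myosin-binding protein of fast fibres and the tested gene below 0, had a log2 difference of -0.58. The level of the list came mostly from Myl1, a light chain, at 27.4 to 43.0 FPKM, and Mylpf, another, reached 9.22 in library 4 and was listed at 0 in library 2. Ryr1, the calcium release channel of skeletal muscle, was at most at 0.0635 FPKM, and Tnnc2, its fast troponin C, was listed at 0 in libraries 1, 2, 4 and 6. Other skeletal genes were above 0 in all 6 libraries, among them Casq1 (2.62 to 3.92 FPKM), Atp2a1 (0.815 to 1.84) and Tnni2 (0.239 to 1.39). The part of skeletal muscle in the Tnni1 and Tnnt1 values was not tested.

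Atrial tissue differed between libraries of both genotypes. The 10 atrial genes summed to 1837, 836 and 147 FPKM in the controls and to 215, 955 and 1578 in the double mutants. Myl7, the atrial regulatory light chain, was at 409, 2.09 and 1.21 FPKM in the controls against 13.4, 173 and 229 in double mutants. Myl4, Sln and Mybphl were likewise highest in libraries 1, 6 and 5, with log2 differences of 1.69, 1.70 and 1.17 and overlapping groups. All 10 differences were above 0, with a median of 1.16, and 0 of 10 passed the threshold. Bmp10, an atrial growth factor and the gene of smallest p, was at 0.477, 0.0217 and 0.167 FPKM in the controls and listed at 0, 10.1 and 32.5 in double mutants. Nppa, the atrial natriuretic peptide, was at 823, 802 and 104 against 142, 491 and 852 FPKM, a log2 difference of 0.00. It made up most of the sum of library 2, where Myl7, Sln and Mybphl were as low as in library 3 or near it. Myh7 was highest in library 4, which was low in atrial genes, and library 1 had the highest atrial sum. Its deposited Myh6 level was also the highest. On the scaled values Myh6 was highest in library 4, and with reference transcripts alone in library 6.

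**Figure D5:**
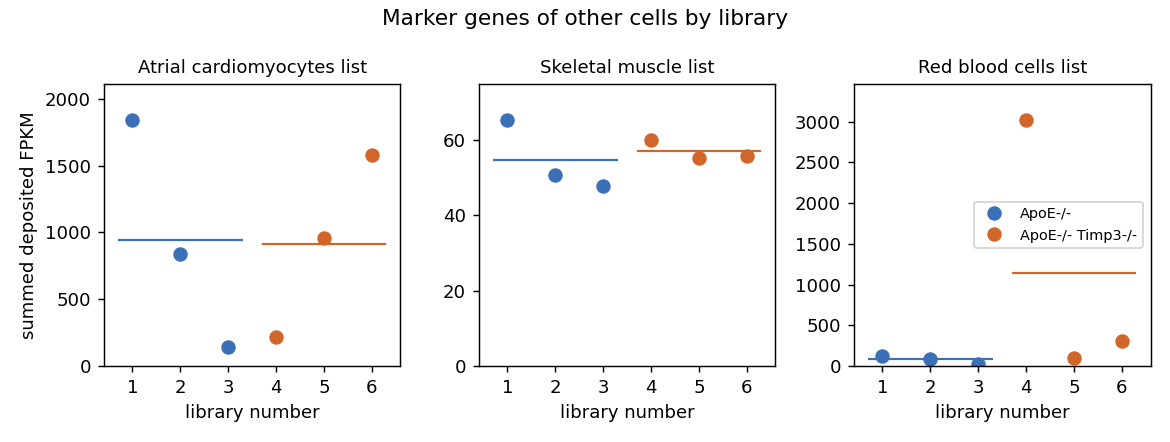
Summed deposited FPKM (vertical axes from 0) of the atrial, skeletal muscle and red blood cell gene lists in libraries 1 to 6, with lines at the group means. Atrial sums are high in libraries 1, 5 and 6 and, mostly through Nppa, in library 2, skeletal sums overlap, and library 4 has 3013 of red blood cell FPKM against 26.3 to 306 elsewhere.

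Cell types outside the muscle cell were also uneven. The 6 fibroblast genes all had differences below 0 (median -0.37), and Col1a1, a collagen chain, was at 21.1, 16.6 and 10.8 FPKM in the controls against 10.1, 6.83 and 7.71 in double mutants (log2 difference -0.80, limma adjusted p = 0.24). The 5 endothelial genes likewise had differences below 0 (median -0.44), and Cdh5, the vascular cadherin, was at 28.9, 34.7 and 26.0 against 18.9, 16.1 and 17.6 FPKM (-0.66, limma adjusted p = 0.24). Their summed FPKM overlapped between the groups for fibroblasts (165 to 308 against 181 to 200) and did not for endothelium (86.6 to 107 against 58.1 to 81.8). At an unadjusted p under 0.05, 3 of the 6 fibroblast and 3 of the 5 endothelial genes were lower, beside 5.19% of all tested genes. The 5 macrophage genes had 3 differences above 0 and 2 below, and the 4 tested smooth muscle genes 3 above and 1 below. None of these genes passed the threshold. Their part in the higher levels of Myh7, Tnni1, Tnnt1 and Tnnt2 was not tested.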

How the data were processed

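For each library the authors deposited Cufflinks transcript values, FPKM and coverage per the file attributes. Build NCBIM37, TopHat and Bowtie are from the submitters' processing notes. Versions and strand are not given in the sources used, and no read counts are in the files used, so no count test was run. Each library was normalized by itself. Transcripts were joined to genes through transcript ID, gene ID or an exon overlap of at least 50%, and assembled ones from 300 nt upward were included (34.0% to 39.6% of aligned bases). A gene's value is the sum of its FPKM. Single-library values are as deposited. Means ± SD and differences use FPKM scaled by the median of ratios (factors 0.896 to 1.17). Genes with a mean FPKM of at least 1 and a transcript of at least 300 nt were tested two-sided on log2(scaled FPKM + 1) by limma 3.58.1 (R 4.3.3, intensity trend), and p-values were adjusted by Benjamini-Hochberg over all genes, threshold 0.05. The fit was tested on simulated data. Ratios had exact permutation tests (scipy 1.17.1). An FPKM of 0 can be a failed estimate. Named beside the members were up to 4 tested genes of smallest p of each list, Timp3, Myh7b, Nppa, Nppb and 4 atrial genes, and the 3 genes most like Myh7, Tnni1 and Tnnt1. Myl1, Mylpf, Ryr1, Tnnc2, Atp2a1 and Tnni2 were named from the skeletal list in addition. The members and lists were chosen with earlier results of these data known. A gene that this rule takes is not reported here.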

Additional observations from a re-analysis of the deposited data

How the results depend on the processing

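Myh7, Tnni1, Tnnt1 and Tnnt2 kept a difference above 0 and stayed short of the threshold in every alternative that gave a value. The smallest adjusted p came with limma array weights, 0.055 for Myh7 and Tnni1 and 0.069 for Tnnt1, and over all alternatives and left-out libraries those of the 3 genes ran up to 0.57. Tnni1 had no value with a mean FPKM of at least 5 or with the strongest transcript, and neither had its ratio to Tnni3 with the latter. Leaving out 1 library at a time gave log2 differences of 0.57 to 0.77 for Myh7, 0.62 to 0.83 for Tnni1, 0.57 to 0.84 for Tnnt1 and 0.31 (without library 1) to 0.63 for Tnnt2. Quantile normalization brought Tnnt2 to 0.11. From coverage in place of FPKM, the exact permutation p was 0.1 for Myh7/Myh6 and Tnnt1/Tnnt2 and 0.2 for Tnni1/Tnni3. A pseudocount of 1 brought the log2 difference of Tnni1/Tnni3 to 0.43 (exact permutation p = 0.3), and the strongest transcript gave 0.23 for Tnnt1/Tnnt2 (exact permutation p = 0.6). Without library 4, the log2 ratio differences were 0.45 for Myh7/Myh6, 1.14 for Tnni1/Tnni3 and 0.25 for Tnnt1/Tnnt2.

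Several adult isoforms changed sign, and the cause was not tested. Scaling to a fixed total, which moved the median of all genes to -0.16, gave -0.0265 for Myh6, -0.00678 for Myl2 and -0.15 for Myl3. Quantile normalization gave -0.13 for Tnni3, -0.0648 for Actc1, -0.27 for Myl2 and -0.28 for Myl3. Myl3 was also at -0.0394 without further scaling, -0.0113 with a mean FPKM of at least 5 and -0.0373 with array weights, and between -0.18 (without library 1) and 0.24 when 1 library was left out, with -0.08 without library 4.

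The count of genes past the threshold (5) was 3 with a pseudocount of 0.1, 9 without a filter, 1 with a mean FPKM of at least 5 (fewer genes tested), 101 with array weights, and 3 to 10 when 1 library was left out (3 without library 1, 9 without 2 and 10 without 4). That of transcripts (17) was 2 with a mean FPKM of at least 5 and 21 to 53 when 1 library was left out, at 53 without library 1 or 4, 41 without 2, 36 without 5 and 39 without 6. The count of members with all double mutants above all controls (4) was also tried in alternatives chosen after seeing the data. Without further scaling it was 4 (5.19% of all genes), and 2 with reference transcripts alone, likewise on deposited values (5.18%). Leaving out 1 library at a time gave 4 to 7 (13.0% to 17.3%). It was 7 without library 6, where 14.7% of all genes met the rule.

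Reads per gene are unknown, so no counting interval is given, and Tnni1 at 0.835 to 2.56 FPKM is the least certain of the 9 genes. No paired analysis was possible because the groups share no library number.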
